A study of Mus musculus with 32 samples.

Results

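9 genes of glucose and lactate transport and handling were followed across the cell types of the mouse median eminence (ME). They were taken by symbol from a single-cell matrix of 27998 genes and comprise the glucose carriers Slc2a1 (GLUT1) and Slc2a3 (GLUT3), the hexokinases Hk1 and Hk2, the lactate dehydrogenase subunits Ldha and Ldhb, and the monocarboxylate carriers Slc16a1 (MCT1), Slc16a3 (MCT4) and Slc16a7 (MCT2). All 9 were found and all had UMIs (unique molecular identifiers, each standing for 1 captured transcript), from 126 for Slc16a7 to 17194 for Ldhb. The ME was dissected from male C57B/L6 mice aged 40 to 47 days that had been fasted overnight (16 h), of which 5 were collected fasted and 5 after 1 h of refeeding. No mouse was fed freely, so every value is from animals that had been through a fast. Tissue was pooled by condition, sorted for live nucleated cells and split over 2 libraries a condition.

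Glucose crosses the blood-brain barrier and cell membranes through facilitated carriers, and hexokinase then traps it in the cell as glucose phosphate, the entry point of glycolysis. Lactate dehydrogenase interconverts pyruvate and lactate, and the monocarboxylate carriers move lactate together with a proton and depend on an accessory protein, basigin or embigin, to reach the cell surface. In the ME the capillaries are fenestrated and tanycytes line the floor of the third ventricle, so that blood, cerebrospinal fluid and neuronal endings lie close to each other.

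The matrix held 5982 cells and 29288898 UMIs, with a median of 3837 UMIs a cell. Each barcode carries a number between 1 and 4, with 6508038 to 7806887 UMIs a number, but nothing tied these numbers to a library or a condition. Refed and fasted cells were therefore not compared. All cells counted as 1 sample, no test was run, and the 4 barcode numbers served to show the spread of each level. 21 barcodes occurred under 2 numbers, so 42 cells carried a barcode found elsewhere. Clusters gave 13 named cell types, from 75 mural-like to 1423 astrocyte-like cells, while 426 cells stayed unnamed, 366 of them in a cluster led by Mia and Mt3. In each named type at least 7 of its markers were highest in that type, and of the pars tuberalis markers 1 of 9 (Gh) was at 0. The macrophage-like cluster was led by Cd74 and Lyz2, and the endothelial-like cluster by Cldn5, Slco1a4 and Ly6c1. Plvap was on the endothelial marker list but not among the 10 leading genes of that cluster. Cells of fenestrated and of other capillaries were not told apart in it. Markers of foreign types stood at a median of 5.63% to 9.86% of their level over all cells. This was taken as a measure of RNA released into the suspension (free RNA), but doublets and true low expression were not told apart from it. The level that it alone would give to a gene is quoted below as its free RNA level.

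Each gene had its own distribution over cell types. Slc2a1 and Slc16a1 were highest in endothelial-like cells, Slc2a3 in neuron-like cells, Hk2 and Slc16a3 in microglia-like cells, Slc16a7 in macrophage-like cells, Ldha in tanycyte-like cells, Ldhb in astrocyte-like cells and Hk1 in pars tuberalis-like cells. The same type led under each of the 4 barcode numbers for Slc2a1, Slc16a1, Slc16a3, Ldhb and Hk2. How often this holds over all genes was not computed. In 4 of the 9 genes (Slc2a1, Slc16a1, Slc16a3 and Hk2) the highest type stood at least 2 times above the next, as against 22.0% of the 13953 genes with 50 UMIs or more and 12 of 69 genes of a list of 90 further genes of glucose metabolism. Levels are UMIs per 1000000 UMIs of a cell type (counts per 1000000, CPM), with 95% exact Poisson intervals that cover counting error only.

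**Figure D1:**
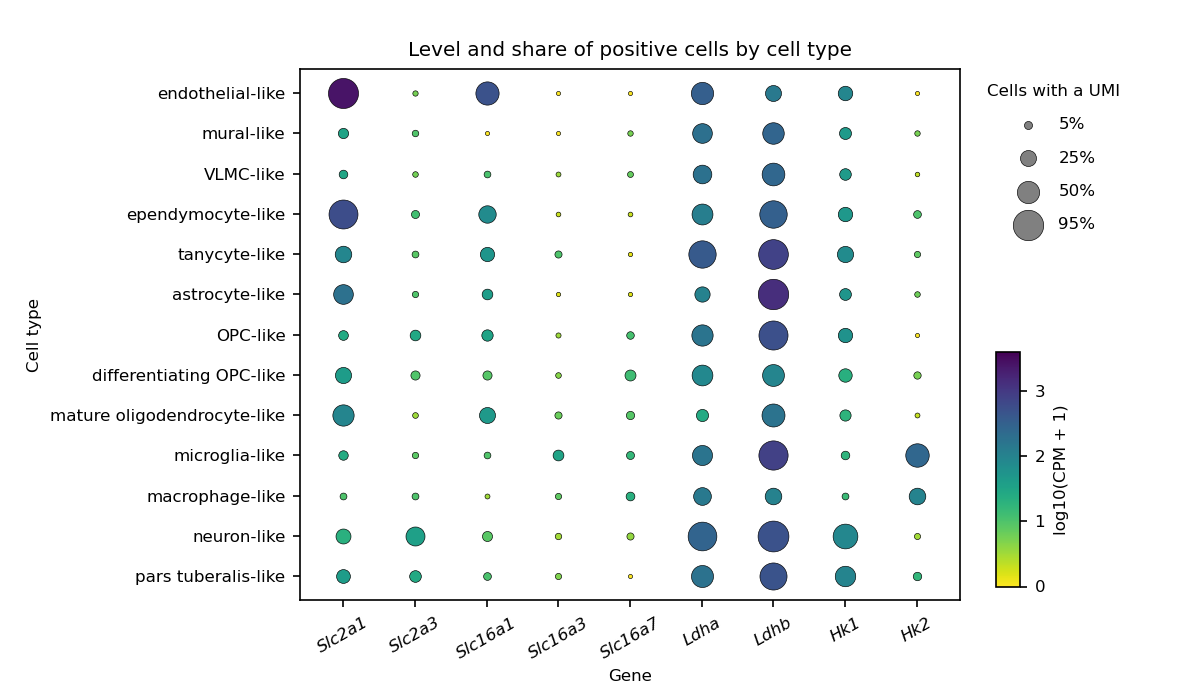
Level of the 9 genes (columns) in 13 cell types (rows), as log10 of CPM plus 1 by colour and as the percentage of cells with at least 1 UMI by dot area. Slc2a1 and Slc16a1 share their darkest row, the endothelial-like cells, while Hk2 is dark only in microglia-like (258 CPM) and macrophage-like cells (97.0 CPM).

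Slc2a1 (ENSMUSG00000028645, GRCm38 chr4:119108711-119137983, plus strand) encodes the main glucose carrier of the barrier endothelium and of glia. It reached 2577 CPM in endothelial-like cells (interval 2367 to 2800), 4.43 times the level of ependymocyte-like cells. The 4 barcode numbers gave 2786, 2880, 2395 and 1749 CPM in 22, 31, 19 and 12 endothelial-like cells, and the lowest of them was still above every ependymocyte-like value (529 to 678 CPM). A UMI was found in 92.9% of the 84 endothelial-like cells at a median of 2246 UMIs a cell, against 3.10% of macrophage-like cells at 3212 UMIs, the type with the lowest level. These 84 cells, 1.40% of the total, held 16.9% of all Slc2a1 UMIs.

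Below the endothelium, Slc2a1 stood at 581 CPM in ependymocyte-like cells, which line the ventricle and carry motile cilia, and at 184 CPM in astrocyte-like cells (151 to 202 over the barcode numbers). These upper 3 types did not overlap each other. Mature oligodendrocyte-like (90.4 CPM) and tanycyte-like cells (86.3 CPM) followed with overlapping ranges. From there the pars tuberalis-like (41.7 CPM), differentiating oligodendrocyte precursor (diffOPC)-like (40.5 CPM), mural-like (31.1 CPM), vascular and leptomeningeal (VLMC)-like (29.5 CPM), oligodendrocyte precursor (OPC)-like (24.8 CPM) and microglia-like cells (24.3 CPM) each overlapped the next type. In neuron-like cells (19.7 CPM) and macrophage-like cells (9.03 CPM) the level was less than 2 times the free RNA level of 10.1 and 6.32 CPM.

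Slc2a3 (ENSMUSG00000003153, chr6:122727809-122801640, minus strand), the high-affinity glucose carrier of neurons, was far sparser, with 425 UMIs in all. Neuron-like cells held 55.3% of them. The level there was 35.6 CPM (interval 31.2 to 40.4), with 29.1, 30.6, 34.7 and 43.1 CPM under the 4 barcode numbers. OPC-like (26.4 CPM, 22.3 to 29.8) and pars tuberalis-like cells (25.8 CPM, 10.3 to 44.6) overlapped these values, and the leading type was OPC-like, neuron-like, pars tuberalis-like and neuron-like under barcode numbers 1 to 4. The other types ranged from 11.1 CPM in ependymocyte-like cells down to 2.38 CPM in mature oligodendrocyte-like cells, each overlapping its neighbor in the order. Slc2a3 was detected in 36.0% of neuron-like cells, whose median depth was 13412 UMIs, against 10.1% of OPC-like cells at 4025 UMIs. Once every cell was thinned to 1000 UMIs these shares were 3.94% and 2.28%.

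The balance of the glucose carriers differed between neuron-like cells and most glia. Of the UMIs of both carriers together, Slc2a1 made up 35.6% in neuron-like cells (32.8% to 39.1% over the barcode numbers), 95.4% in astrocyte-like cells, 91.9% in tanycyte-like cells and 99.8% in endothelial-like cells. OPC-like cells lay between, at 48.4% (31 of 64 UMIs, interval 35.8% to 61.3%), and mature oligodendrocyte-like cells at 97.4%. UMI counts from the 3′ end hold no term for transcript length, but capture can differ between genes, so such shares were compared between cell types and not read as ratios of transcripts.

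Hk1 (ENSMUSG00000037012, chr10:62268855-62379908, minus strand), the hexokinase of most brain cells, was the most even of the 9 genes, with 6.89-fold between its highest and lowest type, and 7 of the 13 types lay within 2-fold of its highest level. Pars tuberalis-like (93.4 CPM), endothelial-like (88.4 CPM), neuron-like (84.7 CPM) and tanycyte-like cells (74.0 CPM) overlapped in a chain. OPC-like, astrocyte-like, ependymocyte-like, mural-like and VLMC-like cells ranged from 57.6 to 44.3 CPM. The low end comprised diffOPC-like (20.3 CPM), mature oligodendrocyte-like (18.0 CPM), microglia-like (17.6 CPM) and macrophage-like cells (13.5 CPM, 6 UMIs, all under barcode number 1).

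Hk2 (ENSMUSG00000000628, chr6:82725025-82774454, minus strand), the hexokinase best known from muscle and from proliferating or activated cells, showed the reverse. Microglia-like cells held 351 of its 499 UMIs (70.3%) at 258 CPM, with 247, 251, 255 and 294 CPM under the barcode numbers. Macrophage-like cells followed at 97.0 CPM (73.0 to 137), clear of the range in microglia-like cells and of the third type, pars tuberalis-like cells at 15.9 CPM (8 UMIs, 0 to 51.5). No other named type exceeded 9.12 CPM. Hk2 had a UMI in 55.8% of microglia-like cells (median 3093 UMIs a cell) and in 2.17% of neuron-like cells (median 13412 UMIs), and in 24.0% of microglia-like and 0% of neuron-like cells after thinning. It had no UMI in OPC-like cells, where 3 counts would be 2.40 CPM, nor in endothelial-like cells, where they would be 14.0 CPM. In VLMC-like (1.23 CPM) and mature oligodendrocyte-like cells (1.08 CPM) it was below its free RNA level.

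Hk1 therefore made up 6.40% of the hexokinase UMIs of this pair in microglia-like cells (interval 4.14% to 9.37%, and 5.19% to 7.02% over the barcode numbers) and 12.2% in macrophage-like cells (6 of 49 UMIs). In neuron-like cells it made up 97.6%, in mature oligodendrocyte-like cells 94.3%, in tanycyte-like cells 91.5% and in astrocyte-like cells 90.7%. The lowest part outside the myeloid types was 82.1% in diffOPC-like cells, from 28 UMIs. Further hexokinases on the list were sparse. Hk3 peaked in microglia-like cells at 48.5 CPM and Hkdc1 in ependymocyte-like cells at 13.2 CPM.

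**Figure D2:**
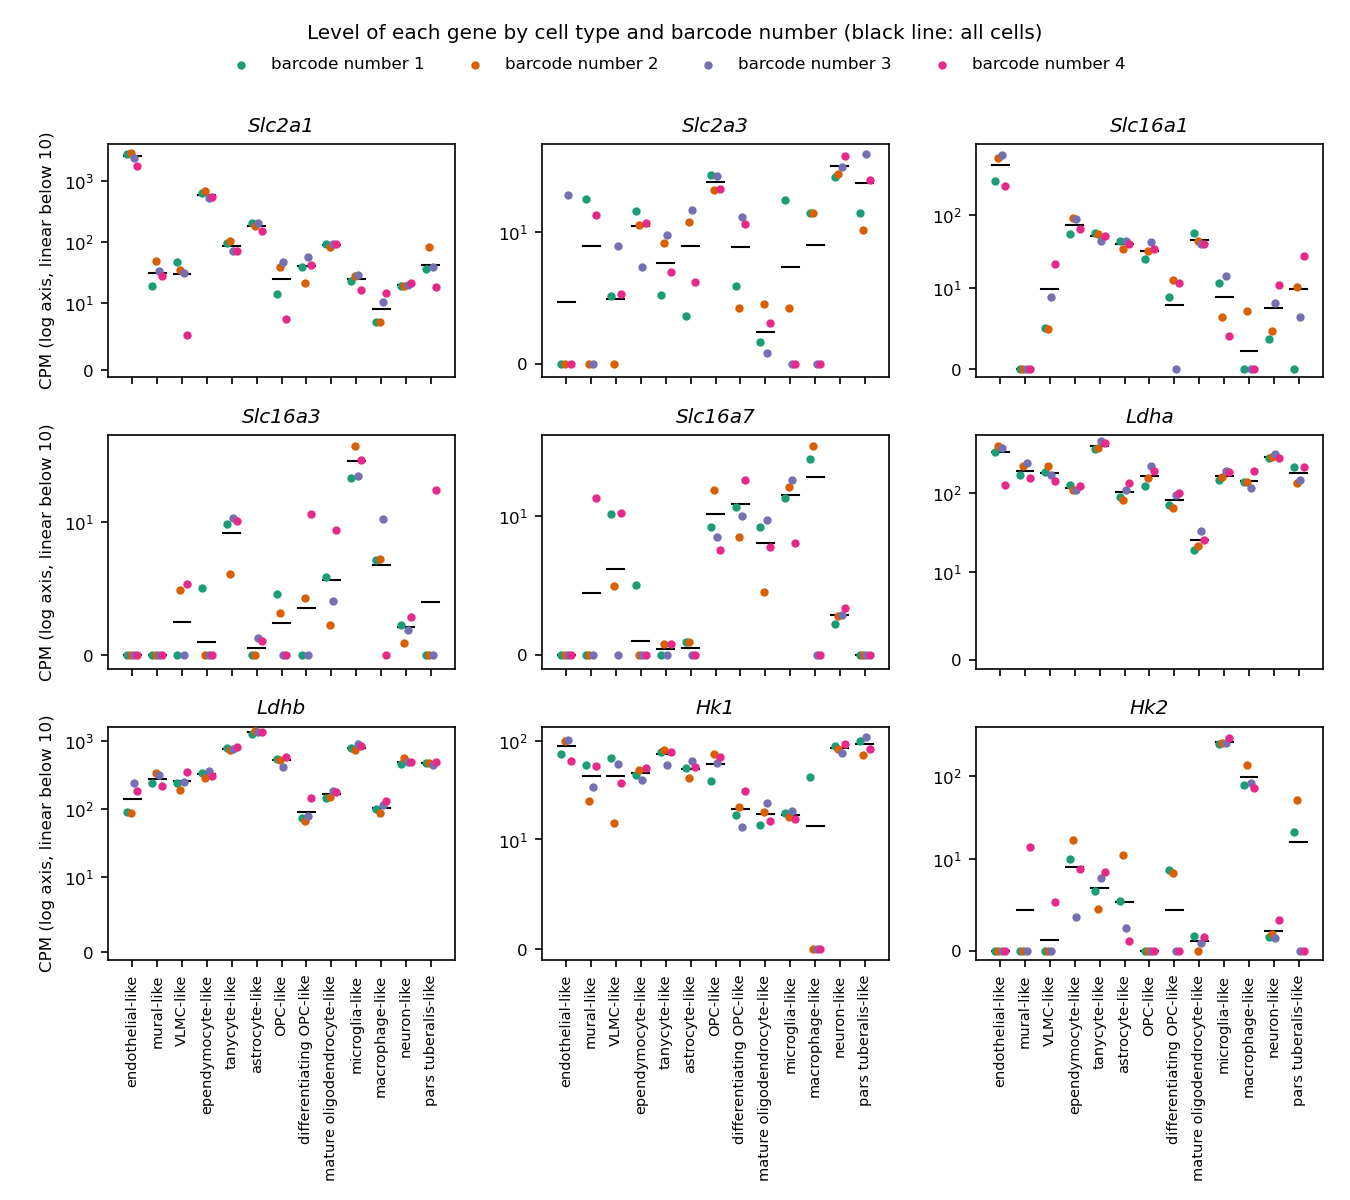
Level in CPM (vertical axes, logarithmic above 10 and linear below) of each gene in the 13 cell types, with 1 colored point for each of the 4 barcode numbers and a black line for all cells. The points of Hk2 in microglia-like cells sit between 247 and 294 CPM, above all other points of that gene, while those of Slc16a7 in macrophage-like cells spread from 0 to 36.1 CPM.

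The lactate dehydrogenase subunits were the most abundant of the 9 genes and divided the cell types differently. Ldha (ENSMUSG00000063229, chr7:46841475-46855627, plus strand), whose subunit is commonly linked with lactate formation, was highest in tanycyte-like cells at 396 CPM (interval 379.6 to 414), with 353, 373, 454 and 421 CPM under the barcode numbers. Endothelial-like cells at 330.2 CPM (125 to 389.9) overlapped this range, and neuron-like cells at 285 CPM (273 to 306) overlapped the endothelial-like values but lay below the tanycyte-like ones. Mural-like, VLMC-like, pars tuberalis-like, microglia-like, OPC-like, macrophage-like, ependymocyte-like and astrocyte-like cells formed an overlapping chain from 191 to 102 CPM, followed by diffOPC-like cells at 81.9 CPM. Mature oligodendrocyte-like cells stood apart at 25.1 CPM (19.1 to 33.1), which was less than 2 times the free RNA level of 15.9 CPM. Ldha has processed pseudogene copies in the genome, so its counts depend on how reads shared with them were assigned.

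Ldhb (ENSMUSG00000030246, chr6:142490249-142507957, minus strand), whose subunit is commonly linked with lactate use, was highest in astrocyte-like cells at 1357 CPM, with 1299.5, 1406, 1369 and 1359.5 CPM under the barcode numbers and a UMI in 95.01% of cells. Microglia-like (807 CPM, 757 to 905) and tanycyte-like cells (780.4 CPM, 738 to 822) came next and overlapped, both well below the astrocyte-like range. OPC-like (533 CPM), neuron-like (497 CPM) and pars tuberalis-like cells (479 CPM) overlapped in turn, as did ependymocyte-like (326 CPM), mural-like (276 CPM) and VLMC-like cells (257 CPM). The lowest levels were those of mature oligodendrocyte-like (166 CPM), endothelial-like (139.5 CPM), macrophage-like (104 CPM) and diffOPC-like cells (90.7 CPM), each of them overlapping the next.

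Ldha made up 6.96% of the Ldha and Ldhb UMIs in astrocyte-like cells (interval 6.32% to 7.65%, and 5.47% to 8.97% over the barcode numbers). The share was 36.4% in neuron-like cells (33.4% to 38.4%) and 33.7% in tanycyte-like cells (30.97% to 37.0%), without overlap of the astrocyte-like values in either. Glia were not uniform, since mature oligodendrocyte-like cells gave 13.1% (11.6% to 15.02%), microglia-like cells 16.8% (15.5% to 17.6%), OPC-like cells 23.4% (18.0% to 33.8%), ependymocyte-like cells 26.3% (23.4% to 28.3%) and diffOPC-like cells 47.4% (40.6% to 53.8%), the last above the neuron-like values. The share also differed between the clusters of a type. In neuron-like cells it was 39.0% in the largest cluster (367 cells), 34.2% in the cluster led by Agrp and Npy and 13.2% (49 of 371 UMIs) in the cluster with Avp and Vip among its leading genes. In the mature oligodendrocyte-like clusters it was 34.7% (33 of 95 UMIs), 16.3% (73 of 448 UMIs) and 2.93% (10 of 341 UMIs), so that the narrow range over the barcode numbers does not describe uniform cells. Among non-neural types the Ldha part was 70.3% in endothelial-like cells and 57.4% in macrophage-like cells (50% to 61.3%). The endothelial-like part was the least stable, with 78.3%, 81.6%, 60% and 40% under the 4 barcode numbers, from 101 UMIs in all, and the last of these from 12 cells.

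**Figure D3:**
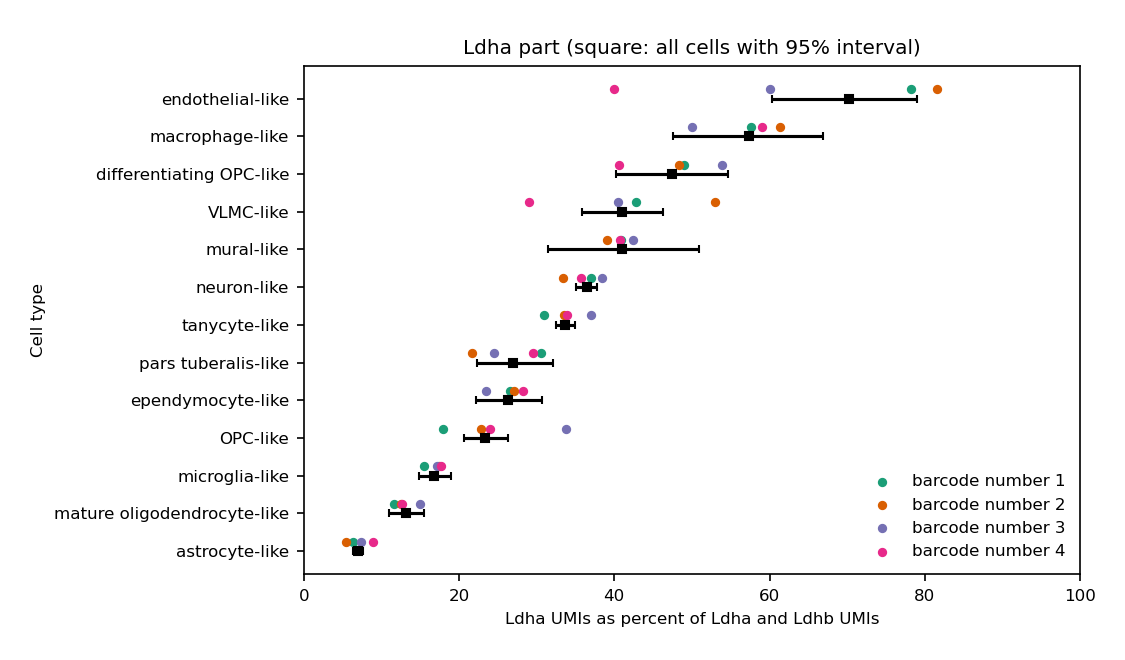
Ldha UMIs as a percentage of Ldha and Ldhb UMIs (horizontal axis) in 13 cell types, with a black square and its 95% exact Clopper-Pearson interval for all cells and 1 colored point for each barcode number. Astrocyte-like cells sit lowest at 6.96% and endothelial-like cells highest at 70.3%, the latter with barcode numbers from 40% to 81.6%.

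How often both subunits were seen in 1 cell differed between types. In neuron-like cells 425 of 508 had UMIs of both, in tanycyte-like cells 889 of 1271, in microglia-like cells 144 of 405, in astrocyte-like cells 307 of 1423, in endothelial-like cells 12 of 84 and in mature oligodendrocyte-like cells 55 of 666. Among astrocyte-like cells, Ldhb was detected in 95.3% of those with Ldha and in 94.9% of those without. After thinning to 1000 UMIs both were detected in 44 neuron-like, 216 tanycyte-like and 99 astrocyte-like cells. These counts depend on depth, and the median was 13412 UMIs in neuron-like, 4002 in tanycyte-like and 2665 in astrocyte-like cells.

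Slc16a1 (ENSMUSG00000032902, chr3:104638668-104658462, plus strand), the most widespread lactate carrier, shared with Slc2a1 its highest type, the endothelial-like cells. It stood at 488 CPM in endothelial-like cells (interval 399 to 591), with 295, 604, 669.8 and 249.8 CPM under the barcode numbers, and the lowest of these was above the highest value of any other named type. Ependymocyte-like cells came next at 74.0 CPM, and tanycyte-like (52.1 CPM), mature oligodendrocyte-like (45.1 CPM), astrocyte-like (40.1 CPM) and OPC-like cells (31.99 CPM) followed, each overlapping the next. Oligodendrocytes are the cells in which this carrier is best known to deliver lactate to axons, and its level in mature oligodendrocyte-like cells (39.7 to 56.5 CPM over the barcode numbers) overlapped that of tanycyte-like and astrocyte-like cells. The remaining types were at 9.93 CPM or below, among them neuron-like cells at 7.57 CPM against a free RNA level of 3.42 CPM. No UMI was found in mural-like cells, where 3 counts would be 13.3 CPM.

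Of the 84 endothelial-like cells 45 had UMIs of both Slc2a1 and Slc16a1, 33 of Slc2a1 alone and 1 of Slc16a1 alone. Over the 13 cell types the log2 levels of the pair had a Pearson r of 0.92, and each was among the 3 genes most like the other of 7752 compared, next to Ablim1 and Rgs12 for Slc2a1 and Pnpla6 and Rgs12 for Slc16a1. The points of this correlation share the same cells and libraries, and endothelial-like cells are the far point of both genes.

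Slc16a3 (ENSMUSG00000025161, chr11:120948480-120960868, plus strand), the carrier typical of cells that export lactate, was rare, with 155 UMIs in 146 cells. Microglia-like cells reached 31.6 CPM (interval 22.9 to 42.6), with 23.0, 42.6, 24.1 and 32.2 CPM under the barcode numbers. Tanycyte-like cells were next at 9.13 CPM (6.10 to 10.6), without overlap, and held 48 UMIs, the largest number of any type. Macrophage-like (6.77 CPM, 3 UMIs) and mature oligodendrocyte-like cells (5.64 CPM, 26 UMIs) overlapped them. Astrocyte-like cells, often described as lactate exporters, had 2 UMIs in 1423 cells, or 0.51 CPM against a free RNA level of 0.43 CPM. Endothelial-like and mural-like cells had none. A UMI was found in 10.4% of microglia-like cells.

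Slc16a7 (ENSMUSG00000020102, chr10:125219270-125389465, minus strand), the high-affinity lactate carrier usually assigned to neurons, was the sparsest gene, with 126 UMIs in 123 cells. The neuron-like level was 2.87 CPM (19 UMIs, 2.24 to 3.35 over the barcode numbers), the eighth of 13 types in order, against a free RNA level of 0.39 CPM. Of the types above neuron-like cells, mural-like cells rested on 1 UMI and VLMC-like cells on 5. Macrophage-like cells led at 20.3 CPM, but this rested on 9 UMIs that all came from barcode numbers 1 and 2. Microglia-like (14.7 CPM, 20 UMIs), diffOPC-like (12.3 CPM, 14 UMIs), OPC-like (10.4 CPM, 13 UMIs) and mature oligodendrocyte-like cells (8.02 CPM, 37 UMIs) overlapped each other. Astrocyte-like (0.51 CPM) and tanycyte-like cells (0.38 CPM) had 2 UMIs each, close to the free RNA level of 0.35 CPM. At these counts the order of the upper types could not be resolved.

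The 3 carriers therefore took different parts of the monocarboxylate carrier UMIs. Against Slc16a7, Slc16a1 made up 99.3% in tanycyte-like, 98.8% in astrocyte-like and 84.9% in mature oligodendrocyte-like cells, but 72.5% in neuron-like (50 of 69 UMIs) and 39.1% in diffOPC-like cells (9 of 23 UMIs, interval 19.7% to 61.5%). Against Slc16a3 it made up 98.8% in astrocyte-like cells, 85.1% in tanycyte-like cells and 21.8% in microglia-like cells (12 of 55 UMIs, interval 11.8% to 35.0%).

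Sequence upstream of the start was read from RefSeq (GRCm38.p6) for 7 of the 9 genes, not for Slc2a3 and Slc16a7. The windows run from 250 to 31 bases before the RefSeq start and are 220 bases long. This start can differ from that of the gene positions given above, which are from GENCODE. The Slc2a1 window ends past its GENCODE start at 119108711, which its match spans, and the printed Ldha window lies inside the GENCODE span. They are shown for the carriers that share the endothelial peak, for the dehydrogenase subunits, whose parts differ between the cell types, and for Hk2, the gene of the myeloid types. ACGTG, the core letters of the element bound by hypoxia-inducible factors, was searched on both strands (as ACGTG and CACGT) and is printed in capitals. CACGTG holds both forms and was counted as 1 place.
Slc2a1 (chr4:119108495-119108714, plus strand): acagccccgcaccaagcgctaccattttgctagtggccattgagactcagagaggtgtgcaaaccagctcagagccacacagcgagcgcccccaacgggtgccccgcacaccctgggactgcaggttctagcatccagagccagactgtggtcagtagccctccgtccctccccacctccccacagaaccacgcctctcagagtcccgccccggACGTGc
Slc16a1 (chr3:104638414-104638633, plus strand): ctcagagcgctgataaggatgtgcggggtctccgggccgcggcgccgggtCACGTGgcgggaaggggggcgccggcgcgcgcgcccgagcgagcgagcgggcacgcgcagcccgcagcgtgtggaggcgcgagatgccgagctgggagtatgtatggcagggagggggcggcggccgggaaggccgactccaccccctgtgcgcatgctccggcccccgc
Ldha (chr7:46845554-46845773, plus strand): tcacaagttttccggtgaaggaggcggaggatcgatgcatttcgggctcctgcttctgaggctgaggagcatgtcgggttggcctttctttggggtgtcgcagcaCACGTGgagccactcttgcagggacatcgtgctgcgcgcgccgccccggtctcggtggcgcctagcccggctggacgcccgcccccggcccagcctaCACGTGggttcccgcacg
Ldhb (chr6:142507988-142508207, minus strand): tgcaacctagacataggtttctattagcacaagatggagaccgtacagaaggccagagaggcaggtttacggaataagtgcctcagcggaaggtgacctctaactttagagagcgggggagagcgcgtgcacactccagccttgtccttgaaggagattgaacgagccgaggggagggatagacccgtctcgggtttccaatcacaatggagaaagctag
Hk2 (chr6:82774485-82774704, minus strand): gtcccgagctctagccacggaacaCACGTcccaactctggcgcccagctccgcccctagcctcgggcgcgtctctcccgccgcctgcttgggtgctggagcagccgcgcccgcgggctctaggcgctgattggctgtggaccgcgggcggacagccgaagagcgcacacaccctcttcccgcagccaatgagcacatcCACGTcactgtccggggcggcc
The letters occurred at 1 place in the Slc2a1 window, 1 in Slc16a1, 2 in this Ldha window and 2 in Hk2, and not in the windows of Ldhb, Slc16a3, Hk1 or a further Ldha start. Of all 32851 RefSeq windows of this length 14.4% held them. The letters contain CG, which occurred 11 (Slc2a1), 33 (Slc16a1), 22 (Ldha) and 24 times (Hk2) in the windows with a match. The median over all windows was 5, and the windows of the 9 genes without a match had 1 to 22. The 14.4% is therefore not a share for windows of like CG content. Each place in the Slc16a1 window and in the printed Ldha window was the palindrome CACGTG. A match is a description of the letters and does not tell which factor, if any, binds them, and no factor binding was measured.

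4 pairs of cell types between which glucose uptake or lactate exchange is usually discussed were compared as log2 differences of CPM plus 10, over genes with at least 50 UMIs in the pair, and a difference was counted past 1 log2 unit. Astrocyte-like cells stood above neuron-like cells in Slc2a1 (by 2.71), Slc16a1 (by 1.51) and Ldhb (by 1.43), which is 3 of the 6 members compared, against 12.4% of 11286 genes. For Slc16a1 the difference was 0.95, and no longer counted, after thinning to 1000 UMIs. Neuron-like cells stood above astrocyte-like cells in Ldha (difference -1.40) and Slc2a3 (-1.27), against 19.3% of all genes. Hk1 differed by -0.62 and was not counted. Slc16a3, Slc16a7 and Hk2 had too few UMIs in the pair. The Ldha difference did not hold for the Avp and Vip cluster of neuron-like cells. Ldha was at 93.3 CPM there (interval 69.0 to 123), against 102 CPM in astrocyte-like cells.

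Of the 90 further genes of glucose metabolism, 58 could be compared between these cells and 20 were higher in astrocyte-like and 8 in neuron-like cells, with a median difference of 0.17 over the list and -0.17 over all genes. The glycogen genes Pygm (123 against 4.54 CPM) and Ppp1r3c (92.9 against 1.82 CPM), which break down glycogen and direct its storage, and Pygb (226 against 42.5 CPM) were the largest differences of their role. In glycolysis the aldolase Aldoc (5396 against 222 CPM) was higher in astrocyte-like cells, and the enolase Eno2 (191 against 9.39 CPM) in neuron-like cells. Of the regulators, Epas1, Pfkfb3 and Txnip were higher in astrocyte-like cells by 2.30, 2.06 and 2.05. In pyruvate metabolism Pcx (56.9 against 7.41 CPM), whose product refills the citric acid cycle, was higher in astrocyte-like cells and Pdp1 (34.3 against 6.09 CPM) in neuron-like cells. Of the accessory proteins, embigin (Emb) was higher in neuron-like cells (64.5 against 10.2 CPM). No pentose phosphate or gluconeogenic gene passed 1 log2 unit, the largest difference being 0.90 for Tkt.

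Tanycyte-like cells exceeded astrocyte-like cells in Ldha by 1.87, 1 of 8 members compared against 10.8% of 10689 genes, and were below them in Slc2a1 (-1.01), against 7.62% of genes. The Slc2a1 difference lay at the threshold, and was not counted without barcode number 3 (-0.91), with the unnamed Mia-led cluster added to the tanycyte-like cells (-0.81) or under 3 other clusterings (-0.93, -0.89 and -0.83). Slc16a3 (0.86), Hk1 (0.44), Slc16a1 (0.31), Hk2 (0.14), Slc2a3 (-0.10) and Ldhb (-0.79) were not counted. Of 58 list genes 4 were higher in tanycyte-like cells (Pdk3, Pfkl, Emb and Eno3) and 8 in astrocyte-like cells, among them Epas1 (-2.32), Pfkfb3 (-1.80), Pygm (-1.65), Slc16a6 (-1.60), Slc2a4 (-1.48), Hif1a (-1.48) and Pfkm (-1.26). Pdk3, a kinase that restrains pyruvate dehydrogenase, was at 29.3 CPM in tanycyte-like and 2.79 CPM in astrocyte-like cells. The phosphofructokinase genes parted, with Pfkl at 129.9 against 49.8 CPM and Pfkm at 80.1 against 206 CPM.

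Along the oligodendrocyte lineage, mature oligodendrocyte-like cells were above OPC-like cells in Slc2a1 (by 1.53), 1 of 6 members against 7.86% of 8710 genes. They were below OPC-like cells in Ldha (-2.29), Ldhb (-1.62) and Hk1 (-1.27), 3 of 6 against 22.9% of genes, and the median over all genes was itself -0.48. Slc16a1 differed by 0.39. Levels in the intermediate diffOPC-like cells did not always lie between. Ldha passed from 162 CPM in OPC-like to 81.9 in diffOPC-like and 25.1 in mature oligodendrocyte-like cells, Slc2a1 from 24.8 to 40.5 and 90.4 CPM, and Slc2a3 from 26.4 to 8.81 and 2.38 CPM, but Slc16a1 from 31.99 to 7.93 and 45.1 CPM and Ldhb from 533 to 90.7 and 166 CPM. For Slc16a1 the diffOPC-like range over the barcode numbers (0 to 12.7 CPM) overlapped neither that of OPC-like (25.2 to 42.4 CPM) nor that of mature oligodendrocyte-like cells. For Ldhb it lay below the OPC-like range (68.0 to 146 against 424 to 597 CPM) and met the mature one (146 to 187 CPM) at its edge. The mature Ldhb level sums clusters at 63.1, 127 and 491 CPM. The first lies below the diffOPC-like level and the last close to the OPC-like level. The Ldhb difference of -1.62 and the low diffOPC-like level therefore do not hold against each mature cluster. Of 39 list genes 9 were higher in OPC-like cells, led by Aldoc (785 against 149 CPM), Eno1 (379.9 against 69.4 CPM, a gene with a near copy in the genome) and Emb (36.8 against 2.17 CPM), and 2 in mature oligodendrocyte-like cells, Taldo1 of the pentose phosphate pathway (1207 against 291 CPM) and Pdk3 (49.9 against 17.6 CPM).

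Endothelial-like cells stood above VLMC-like cells, the fibroblast-like cells of vessels and meninges, in Slc2a1 by 6.03 and in Slc16a1 by 4.65, 2 of 5 members compared against 11.8% of 3456 genes. In the other direction none of the 5 was counted, against 15.7% of genes. Ldha (0.85), Hk1 (0.86) and Ldhb (-0.84) stayed under 1 log2 unit, but Ldhb was at -1.19 without barcode number 3 and Ldha at 1.18 after thinning. Of 21 list genes 4 were higher in endothelial-like cells and 0 in VLMC-like cells. They were basigin (Bsg, 17711 against 715 CPM), Epas1, a hypoxia-inducible factor gene named for its endothelial expression (790.7 against 39.4 CPM), Taldo1 (284 against 98.5 CPM) and Pfkl (120.9 against 48.0 CPM).

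**Figure D4:**
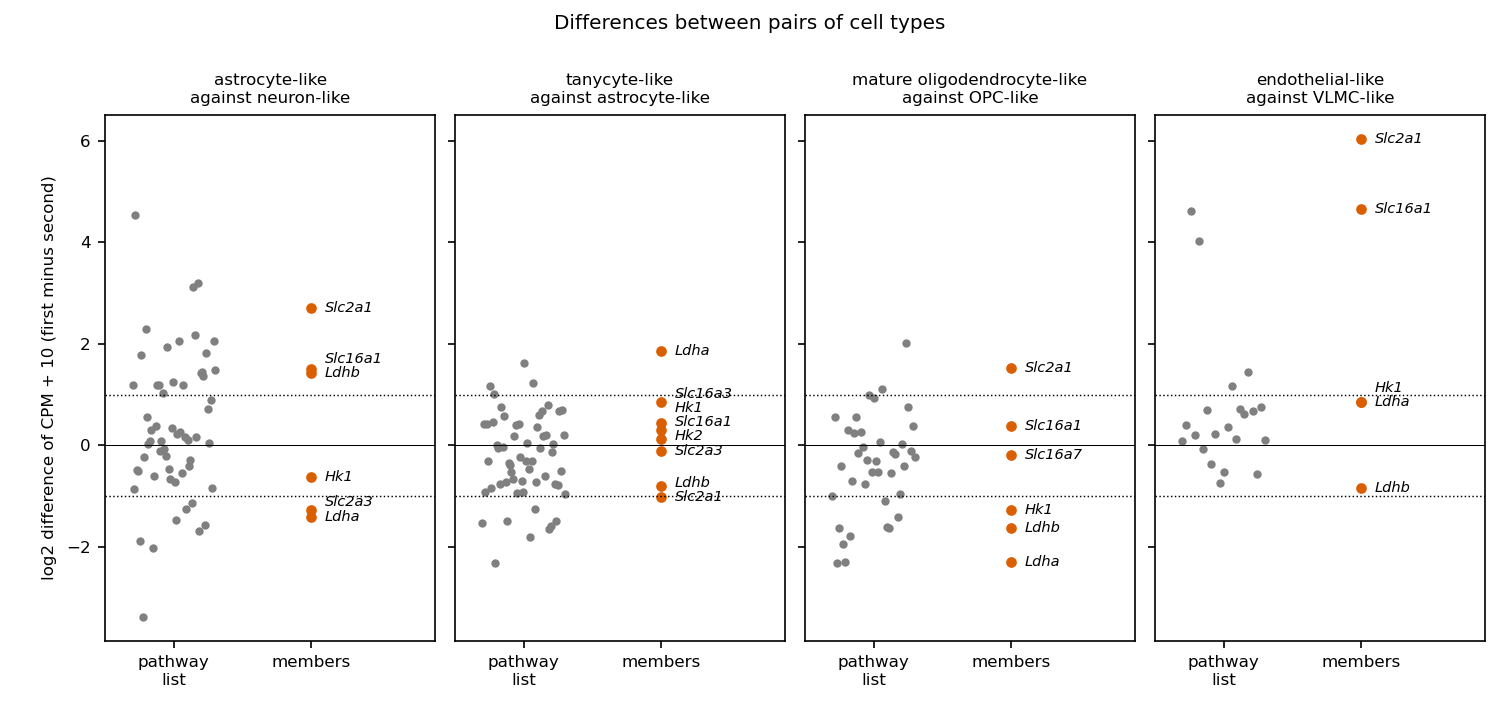
Log2 differences of CPM plus 10 between the first and the second cell type named above each panel, for the genes of the wider list (grey) and the 9 genes (orange, named) with at least 50 UMIs in the pair. Dotted lines mark 1 log2 unit, and Slc2a1 is past the upper line in 3 of the 4 panels and past the lower line (-1.01) for tanycyte-like against astrocyte-like cells.

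Several other carriers were high in few cell types. Slc2a5, the fructose carrier, reached 242 CPM in microglia-like cells and at most 4.65 CPM in any other type. Slc2a4, the insulin-regulated glucose carrier, was highest in mural-like cells at 84.5 CPM and reached 26.4 CPM in astrocyte-like cells. Slc16a4 reached 223 CPM in endothelial-like cells, against 8.89 CPM for the next type, and Slc16a6 at 89.0 CPM in microglia-like cells. Embigin peaked in pars tuberalis-like cells (367 CPM) and basigin in endothelial-like cells. Of the 90 genes 7 had no UMI at all (Slc5a1, Slc5a2, Slc16a5, Slc5a12, Ldhc, G6pc and Kcnj11), and Hcar1, the lactate receptor, had 12 UMIs, with its highest level of 9.85 CPM in VLMC-like cells.

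Cell types that hold several clusters were not uniform in the 9 genes. Of the tanycyte-like clusters, the larger (733 cells, led by 6330403K07Rik and Dynlrb2) had 474 CPM of Ldha, 14.5 of Slc16a3 and 12.7 of Hk2, and the other (538 cells, with Mia and Col25a1 among its leading genes) had 315, 3.50 and 0.78. Slc2a1 ran the other way, with 48.8 CPM in the larger and 126 CPM in the other cluster, as did Hk1 (59.9 and 88.7 CPM). The 95% intervals of the clusters did not meet for these genes, nor for Ldhb (889 and 667 CPM) and Slc16a1 (41.7 and 63.0 CPM). They met for Slc2a3 and Slc16a7. How often such intervals fail to meet over all genes was not computed, so this is not a result particular to the 9 genes. In mature oligodendrocyte-like cells Ldhb stood at 63.1, 127 and 491 CPM in clusters of 82, 502 and 82 cells, the last with Trf and Klk6 among its leading genes, while Slc2a1 lay between 89.6 and 92.6 CPM in all 3. In neuron-like cells Ldha was at 318 CPM in the largest cluster (367 cells, Sst and Gal), 229 CPM in the Agrp and Npy cluster (65 cells) and 93.3 CPM in the Avp and Vip cluster (76 cells), whose Ldhb (613 CPM) was the highest of the 3. Of the astrocyte-like clusters, a small one of 10 cells led by Gfap and Myoc had 435 CPM of Slc16a1 (13 UMIs), against 38.4 and 33.6 CPM in the others. Clusters were formed from the same UMIs, so these are descriptions of the cells grouped.

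**Figure D5:**
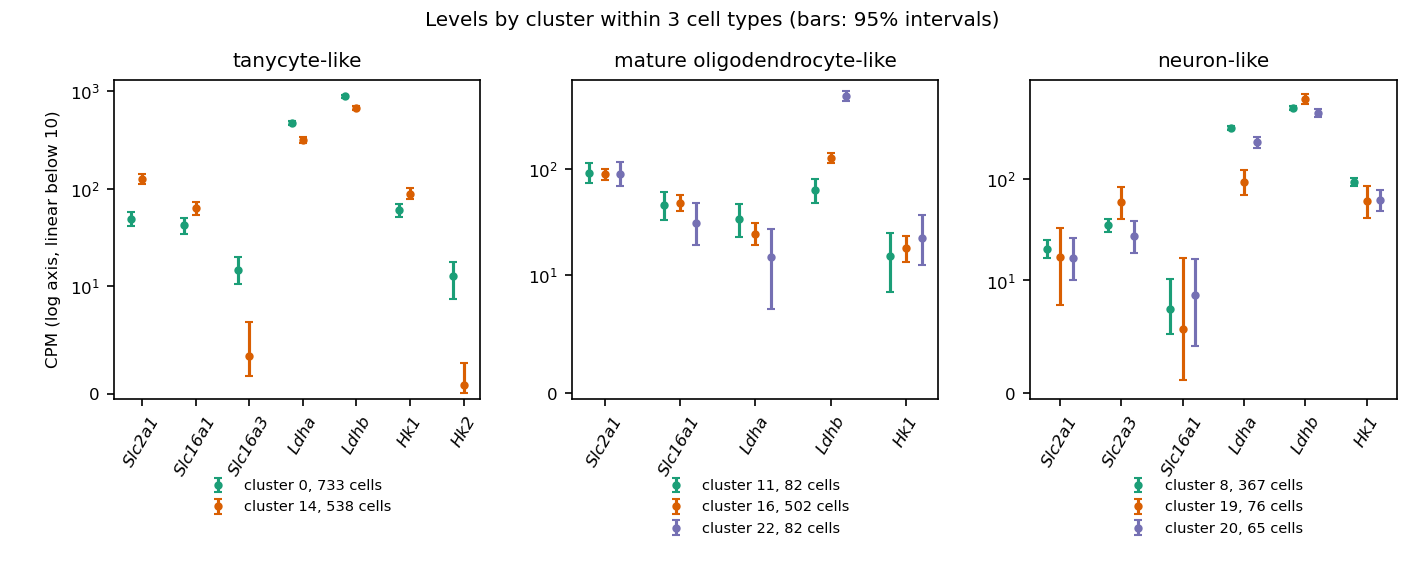
Level in CPM (vertical axes, logarithmic above 10 and linear below) by cluster in tanycyte-like, mature oligodendrocyte-like and neuron-like cells, with 95% exact Poisson intervals as bars. Ldhb spans 63.1 to 491 CPM over the mature oligodendrocyte-like clusters, while Slc2a1 in the same clusters stays near 90.4 CPM, the level over all these cells.

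Apart from Slc2a1 and Slc16a1, likeness over the 13 types was highest between Slc16a3 and Hk2 among the 9 genes (Pearson r of 0.81) and lowest between Slc16a7 and Hk1 (-0.85). Of all genes with at least 500 UMIs, those most like Hk2 were Hpgds, Ly86 and Itgam (r of 0.98, 0.98 and 0.97), those most like Slc2a3 were Pianp, Calb2 and Syngr3 (0.96, 0.94 and 0.94), and those most like Slc16a3 were Crybb1, P2ry12 and Ctc1 (0.90, 0.88 and 0.87). P2ry12 is also a marker by which the microglia-like cells were named. Ldha was most like Sfxn3, Faap20 and Grcc10 (0.92, 0.91 and 0.88), Ldhb most like Mras (0.86), Hk1 most like E2f6 (0.93) and Slc16a7 most like Cerk (0.87). With 13 points that come from the same libraries these values describe likeness of pattern only. Slc16a3 (155 UMIs) and Slc16a7 (126 UMIs) lay in most types below the 10 CPM added before the log. Their correlations therefore rest on few counts.

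The 9 genes also varied over the barcode numbers when all cells were summed, and cell numbers varied with them. Hk2 was at 19.2, 25.7, 10.8 and 13.5 CPM under the 4 numbers, which held 123, 140, 62 and 80 microglia-like cells, whereas its level within those cells was 247 to 294 CPM. Slc2a3 was at 11.9, 11.8, 17.1 and 16.9 CPM, where the neuron-like cells numbered 106, 86, 158 and 158. The part of the cell numbers in these differences was not tested. What sets the cell numbers apart could not be examined, since the numbers were not tied to conditions.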

How the data were processed

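Single cells of the ME of fasted and refed mice were measured with a droplet 3′ assay, and the 32 records of the series are sequencing parts of 4 libraries. The deposited values are raw UMI counts in 1 matrix, all whole numbers, which the authors obtained with Cell Ranger 2.0 and mm10 (GRCm38) according to the submitters' processing notes. The gene annotation they used is not given in the sources used here. Columns of per-sample values left unused numbered 0. Of 27998 gene identifiers 27645 had a symbol in the reference table of gene names, and positions were taken from GENCODE vM21.

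The 2000 most variable genes, 30 principal components, 15 neighbors and Leiden clusters at resolution 1 (scanpy 1.11.5, scikit-learn 1.9.0, igraph 0.11.9, seed 0) were used. A cluster took the name of the marker list, of 13, with the best score (at least 0.3 and 1.5 times the next) when at least 3 markers lay 4 times above the median cluster and no other list had more markers among its 10 leading genes. 3 cells rich in haemoglobin were set apart. 50 cells (0.836%) marked by Scrublet were kept. UMIs were summed by type and scaled to CPM, with 95% exact Poisson and Clopper-Pearson intervals (scipy 1.17.1) that cover counting error only. UMIs of 1 cell are not independent, and a count of 0 was read against a limit of 3 counts. The free RNA level is the median, over markers of types outside its own lineage, of their CPM in the type divided by that over all cells, times the CPM of the gene over all cells. Of these steps only the log2 differences between pairs of types were tested on simulated data, drawn as Poisson counts of 2 summed types.

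Named genes are the 9, the list genes with the largest differences or levels in each of 8 roles, and for each of the 9 the 3 genes most like it. Some genes that this rule names are not reported here. Slc16a4, Slc16a6, Hcar1 and the list genes with no UMI were named after their values were seen. The 9 genes, the lists and the thresholds were chosen with earlier results of these data known. The planned test of refed against fasted cells was not made because cells could not be given a condition. Alternatives were other clusterings, filters, thinning to 1000 UMIs, each barcode number left out, and, for the pairs, another pseudocount, count minimum and threshold.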

Additional observations from a re-analysis of the deposited data

How the results depend on the processing

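No paired analysis was possible because the cells carry no library or condition, so the replicate numbers of the labels could not be matched to them. The count of 4 genes whose highest type stood at least 2 times above the next stayed at 4 in every alternative that gave all 13 types. K-means with 9 clusters named 5 of the 13 types and gave values for those alone. Of 622 values recomputed under 15 alternatives 26 moved past their interval or by over 1.5 times, and of the differences between cell types in the 9 genes 15 were no longer counted (9 of these under the threshold of 2 log2 units) and 3 became counted, while none that was counted changed sign. The cause was not tested except where the setting itself lowers a count.

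The Ldha part in tanycyte-like cells was 35.4% with K-means and 35.3% with the unnamed Mia-led cluster counted as tanycyte-like, a setting chosen after the data were seen, and 16.8% in mature oligodendrocyte-like cells after thinning. Leaving out each barcode number in turn gave an Ldha part of 6.29% to 7.54% in astrocyte-like, 35.5% to 37.1% in neuron-like, 32.7% to 34.8% in tanycyte-like, 12.3% to 13.6% in mature oligodendrocyte-like, 16.5% to 17.4% in microglia-like and 63.5% to 74.6% in endothelial-like cells.

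For the wider list, the number of genes compared and the share over all genes were not computed again in the alternatives. The counts that follow are therefore not a result particular to the list. Of the wider list, thinning left 13 genes higher in astrocyte-like than in neuron-like cells and 3 the other way, 2 higher in tanycyte-like than in astrocyte-like cells and 5 higher in OPC-like than in mature oligodendrocyte-like cells. A threshold of 2 log2 units left 7 and 2 between astrocyte-like and neuron-like cells, 0 and 1 between tanycyte-like and astrocyte-like cells, 1 and 2 between mature oligodendrocyte-like and OPC-like cells and 2 above VLMC-like cells in the endothelial-like ones. A pseudocount of 1 CPM gave 16 genes higher in astrocyte-like than in tanycyte-like cells and 4 higher in mature oligodendrocyte-like than in OPC-like cells. With no minimum of UMIs 7 genes were higher in endothelial-like and 4 in VLMC-like cells. Without single barcode numbers the counts were 18 to 20 and 8 to 8 between astrocyte-like and neuron-like cells, 2 to 4 (2 without barcode number 2) and 8 to 9 between tanycyte-like and astrocyte-like cells, 2 to 4 (4 without barcode number 3) and 7 to 9 between mature oligodendrocyte-like and OPC-like cells, and 3 to 4 and 0 to 1 (1 without barcode number 2) between endothelial-like and VLMC-like cells.

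Among the 9 genes Slc2a1 between tanycyte-like and astrocyte-like cells (-1.01) ranged from -1.10 to -0.81 and was not counted in 6 of 15 alternatives, and Slc16a3 between the same cells was counted at 2.75 with a pseudocount of 1 CPM.

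The levels of the 9 genes in their highest type moved by less than 1.5 times in all alternatives but for Slc16a7 in macrophage-like cells, which ranged from 13.1 to 25.9 CPM, the lowest value being without barcode number 2. Ldha in tanycyte-like cells left its interval in 3 of 12 alternatives, with a lowest value of 337 CPM. Ldhb in astrocyte-like cells did so in 1 of 12, and the other genes stayed within their wider intervals. Depth limits Slc16a7 and Slc16a3, of which no named type held 50 UMIs, Slc2a3 and Hk2, of which 1 type did, and the small endothelial-like, mural-like and pars tuberalis-like types.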

Other observations

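The 426 unnamed cells belong to no comparison above, and their values are given as they stand. The cluster led by Mia and Mt3 (366 cells, with Gfap also among its leading genes) had 367 CPM of Ldha, 509 CPM of Ldhb, 145 CPM of Slc2a1, 94.1 CPM of Slc16a1 and 78.0 CPM of Hk1, and 1.80 CPM of Hk2. Its Slc16a1 level was above that of each named type but the endothelial-like cells. In 41 cells with Mgp, Ccn3 and Spon2 among the leading genes there were 295 CPM of Ldha, 300.2 CPM of Ldhb and 89.5 CPM of Slc16a1. A cluster of 19 cells with leading genes of cytotoxic lymphocytes (Ccl5, Nkg7 and Gzma) had 295 CPM of Ldha (17 UMIs) and 52.0 CPM of Ldhb (3 UMIs).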
